A study of Homo sapiens with 6 samples.

Results

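The 8 genes described here set and erase the phosphorylation mark on translation factor eIF2alpha, or report mitochondrial damage to it. They are the eIF2alpha kinases EIF2AK1 (HRI), EIF2AK2 (PKR), EIF2AK3 (PERK) and EIF2AK4 (GCN2), the phosphatase subunits PPP1R15A (GADD34) and PPP1R15B (CReP), and the mitochondrial pair OMA1 and DELE1, the latter formerly KIAA0141. They were chosen by name and are 8 of the 33890 genes in the deposited table. All 8 reached the minimum level for testing, 1 FPKM or more in 3 or more of the 6 libraries, as did 14380 genes in all. FPKM counts reads per exon length and per library total. Polyadenylated RNA came from LN229, an established human glioblastoma line grown attached in serum-containing medium. The control group is 3 libraries of untreated cells, and the UDCA group is 3 libraries of cells kept for 48 h in 800 µM ursodeoxycholic acid, a bile acid given to patients with cholestasis. The labels give no genetic difference between the groups, and all values come from 1 cell line. Separate cultures are not stated in the labels; p-values therefore reflect only how these libraries vary among themselves, which may be technical variation.

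Phosphorylated eIF2alpha lowers general protein synthesis while favouring translation of a few messages, among them that of the transcription factor ATF4. Each kinase answers its own signal: HRI to heme shortage and to mitochondrial stress, PKR to double-stranded RNA, PERK to unfolded protein in the endoplasmic reticulum, and GCN2 to uncharged tRNA and stalled ribosomes. For mitochondrial stress, the inner-membrane protease OMA1 cuts DELE1, and the released fragment binds HRI and activates it. GADD34 and CReP bring the protein phosphatase PP1 to eIF2alpha, GADD34 as the inducible arm of a feedback loop and CReP as the constitutive arm. The kinases are switched on as proteins, by binding and autophosphorylation, and OMA1 by a change in the membrane, so transcript levels do not measure their activity.

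The libraries were similar in depth, with 15988951 to 17743022 recovered reads each. Neural and glial markers were looked up, which describe the cells but cannot tell LN229 from another line. S100B, SOX2, NES, VIM and OLIG2 were at or above 1 FPKM on average in both groups, while GFAP, SOX9 and AQP4 were below it. The summed level of the 8 markers was 678 to 693 FPKM in control and 111 to 114 FPKM with UDCA. With UDCA SOX2 fell 29.9-fold, S100B 22.8-fold, NES 5.50-fold and VIM 2.57-fold, while OLIG2 stood at 4.59 FPKM in control and 4.81 FPKM with UDCA. Haematopoietic markers (PTPRC, CD3E, CD68, CD14) summed to at most 0.537 FPKM and endothelial markers (PECAM1, CDH5, VWF) to at most 0.682 FPKM in any library. Of the epithelial markers EPCAM and CDH1 were near 0 in every library, and KRT8 stood at 3.57 ± 0.267 and 5.62 ± 0.289 FPKM. In bulk RNA, fewer cells that express a gene and less RNA per cell cannot be told apart.

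Of the 8 genes, 7 rose and 1, DELE1, fell. Both phosphatase subunits and all 4 kinases were among the 7, and GADD34 rose 12.5-fold where no other member changed more than 2.13-fold. These counts stand against a broad response: 80.8% of all tested genes differed at an adjusted p under 0.05 (limma), 45.1% higher and 35.7% lower. The groups did not overlap for any of the 8 genes, which also held for 82.8% of tested genes. The median log2 change of the 8 genes was 0.61, beside 0.10 for all tested genes. Each log2 change is the UDCA mean less the control mean of log2(FPKM + 1), a scale that compresses the change of weakly expressed genes.

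**Figure D1:**
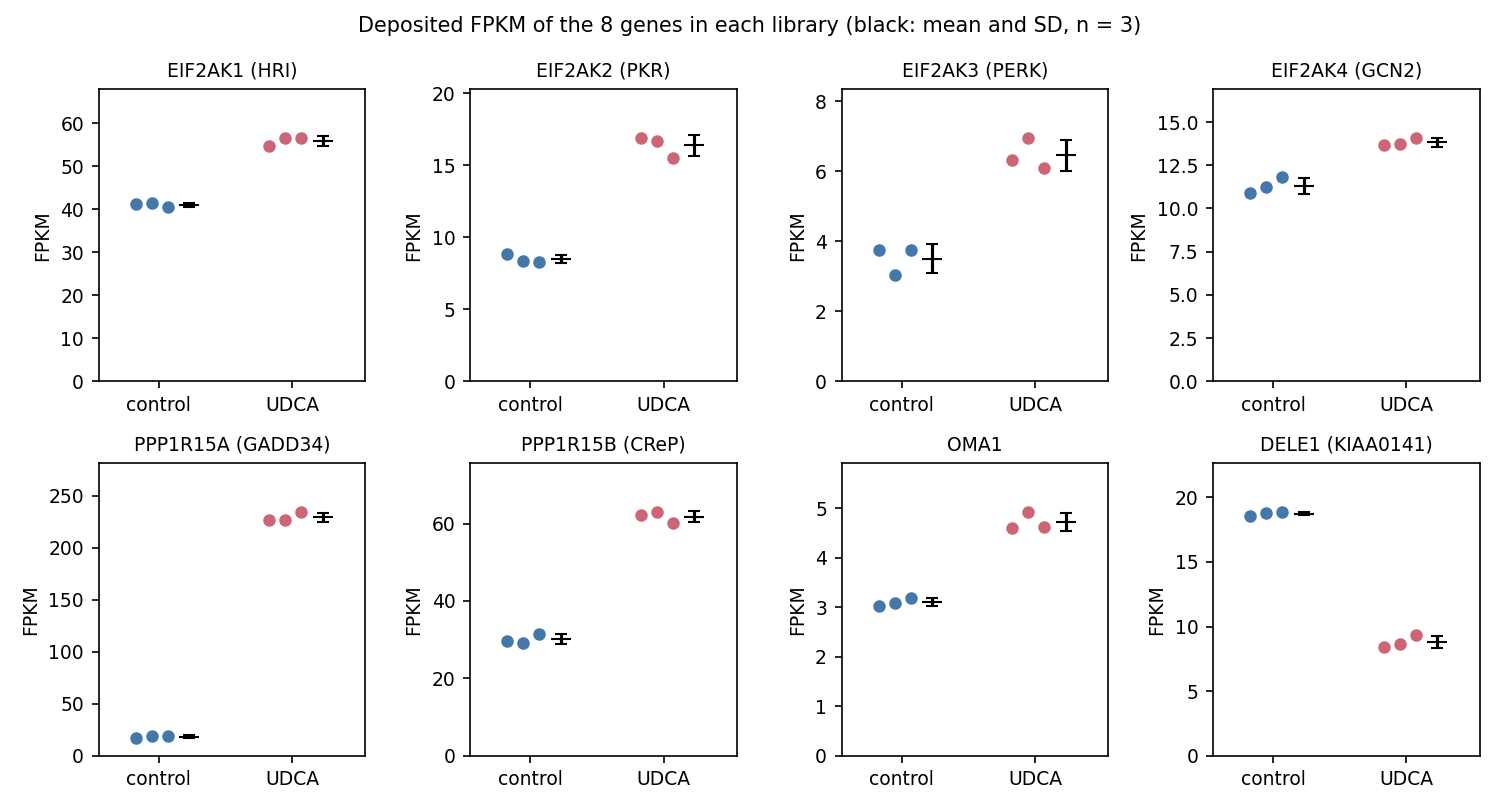
Deposited FPKM (vertical axes, each starting at 0) of the 8 genes in the 3 control libraries (blue) and the 3 UDCA libraries (red), with the mean and SD of each group in black (n = 3). The UDCA points lie above the control points in 7 panels, and below them for DELE1, at 8.41 to 9.34 against 18.6 to 18.9 FPKM.

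HRI was the most abundant kinase transcript in both groups. EIF2AK1 (ENSG00000086232, GRCh38 chromosome 7, 6022244 to 6059230, minus strand) stood at 41.3, 41.4 and 40.6 FPKM in control replicates 1 to 3 and at 54.6, 56.6 and 56.5 FPKM in UDCA replicates 1 to 3. Every UDCA library was above every control library, and the step between the groups was far wider than the spread within either. The mean rose 1.36-fold from 41.1 ± 0.444 to 55.9 ± 1.14 FPKM (SD, n = 3 in each group), a log2 change of 0.44 ± 0.023 (SE; limma, adjusted p = 2.33e-06). Of its exon bases 9.59% lie in exons of AIMP2 on the opposite strand, a scaffold gene of the tRNA synthetase complex that stood at 15.3 ± 1.21 FPKM in control and 35.0 ± 0.437 FPKM with UDCA. Whether reads were counted by strand is not given in the sources used here, so reads in that stretch cannot be told apart.

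PKR showed the largest log2 change of the 4 kinases. EIF2AK2 (ENSG00000055332, chromosome 2, 37099210 to 37157065, minus strand) stood at 8.82, 8.38 and 8.33 FPKM in control and at 16.9, 16.7 and 15.5 FPKM with UDCA. The treated libraries were close to one another and far from the control libraries. The mean rose 1.93-fold from 8.51 ± 0.272 to 16.4 ± 0.746 FPKM, a log2 change of 0.87 ± 0.042 (adjusted p = 1.54e-06). Of its exon bases 4.05% lie in exons of opposite-strand genes, among them GPATCH11, which stood at 11.4 ± 0.443 and 8.27 ± 0.570 FPKM. PKR is known as an interferon-inducible gene, and its RefSeq start site holds a match to the core of the interferon-stimulated response element, GAAANNGAAA. The match spans bases -6 to 4 from the RefSeq start and is shown, with its flanks, for that reason (GRCh38.p14, chr2:37156967-37156996, minus strand, 5′ to 3′; capitals mark the match):

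EIF2AK2: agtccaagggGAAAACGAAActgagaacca

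That motif, searched on both strands, occurs in 3.57% of 35116 RefSeq promoter windows of the same length, 250 bases before to 50 after a start. In GENCODE 29, used for the levels, EIF2AK2 starts further upstream, at base 37157065, so there the match lies inside the gene. A match is a description of the letters and not of a bound site.

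PERK was the scarcest of the kinases. EIF2AK3 (ENSG00000172071, chromosome 2, 88556741 to 88627576, minus strand) stood at 3.74, 3.03 and 3.75 FPKM in control and at 6.32, 6.95 and 6.10 FPKM with UDCA. Control replicate 2 lay below the other control libraries, and no control library reached the lowest UDCA library. The mean rose 1.84-fold from 3.51 ± 0.415 to 6.46 ± 0.442 FPKM, a log2 change of 0.73 ± 0.081 (adjusted p = 0.000125). It rests on 283 to 362 reads per control library and 549 to 644 per UDCA library, and its control coefficient of variation of 11.8% exceeds the 5.52% that counting error alone gives. Of its exon bases 15.1% lie in exons of opposite-strand genes, of which the one above 1 FPKM in control, AC062029.1, was at 1.19 ± 0.0533 and 0.832 ± 0.221 FPKM.

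GCN2 moved least. EIF2AK4 (ENSG00000128829, chromosome 15, 39934146 to 40035591, plus strand) stood at 10.9, 11.2 and 11.8 FPKM in control and at 13.7, 13.7 and 14.1 FPKM with UDCA. The groups were apart, though the highest control library came within 1.16-fold of the lowest UDCA library. The mean rose 1.22-fold from 11.3 ± 0.458 to 13.8 ± 0.236 FPKM, a log2 change of 0.27 ± 0.036 (adjusted p = 0.000375). That is 0.17 above the median gene, and 58.9% of tested genes had a lower log2 change. With quantile normalization the log2 change was 0.17 (adjusted p = 0.00558).

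Because the kinases rose by different amounts, their proportions shifted. The summed level of the 4 transcripts was 64.4 ± 0.380 FPKM in control and 92.6 ± 1.28 FPKM with UDCA. HRI made up 63.8% ± 0.859 of that sum in control and 60.4% ± 0.809 with UDCA, and GCN2 went from 17.6% ± 0.738 to 14.9% ± 0.346. PKR went from 13.2% ± 0.367 to 17.7% ± 0.826 and PERK from 5.44% ± 0.617 to 6.97% ± 0.395. Counted in recovered reads, without length scaling, the GCN2 share moved by -4.50 percentage points in place of -2.65. A share within a library does not depend on how libraries are scaled. For none of the 4 shares did the groups overlap, and each gave p = 0.1 in a 2-sided exact permutation test (0.1 also after adjustment over the 4), the smallest value that 3 against 3 libraries can give.

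**Figure D2:**
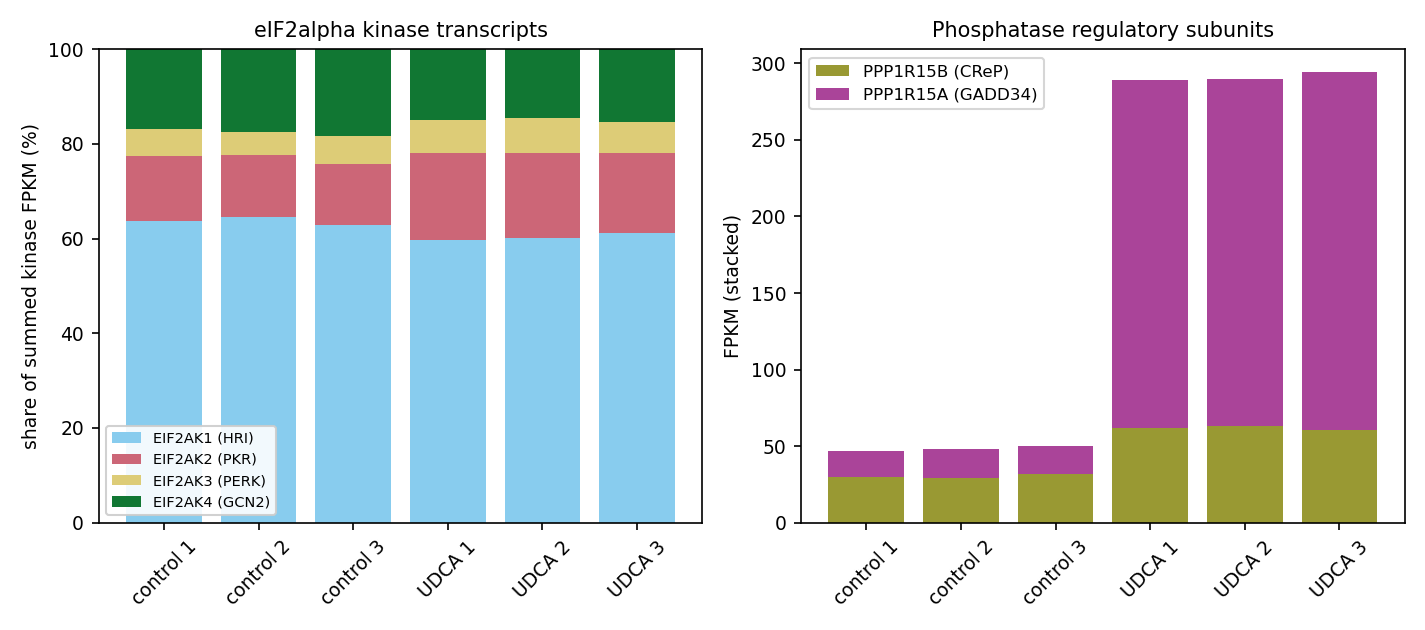
Left, the share of each kinase (percent of the summed FPKM of the 4) in each library; right, the FPKM of both phosphatase subunits, stacked from 0, in each library. PKR takes 12.9 to 13.6% in control and 16.8 to 18.5% with UDCA, and the subunit sum goes from 46.9 to 50.3 FPKM in control to 289 to 295 FPKM with UDCA, most of it PPP1R15A.

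Genes for proteins that act on the kinases were mostly higher. Of 8 fixed regulators 6 were higher, 1 lower and 1 not called, with a median log2 change of 0.51. This and the list counts that follow stand beside 45.1% higher and 35.7% lower among all tested genes. HSPA5, which encodes the PERK-binding chaperone BiP, rose most, by 4.67-fold. NCK1, an adaptor that binds PERK, rose 2.89-fold from 3.87 ± 0.422 to 11.2 ± 0.381 FPKM, and DNAJC3, which encodes the PKR and PERK inhibitor p58IPK, rose 1.50-fold from 14.9 ± 0.307 to 22.3 ± 0.610 FPKM. GCN1, the partner GCN2 needs at the ribosome, rose 1.41-fold to 34.9 ± 1.13 FPKM, and IMPACT, which competes for GCN1, rose 1.21-fold to 10.2 ± 0.245 FPKM. ADAR, the RNA editing enzyme that restrains PKR, rose 1.46-fold to 64.1 ± 0.0485 FPKM. TARBP2, whose product binds and inhibits PKR, fell 3.26-fold from 11.4 ± 0.332 to 3.51 ± 0.327 FPKM, while PRKRA, which encodes the PKR activator PACT, stood at 9.40 ± 0.339 and 9.69 ± 0.552 FPKM (adjusted p = 0.483).

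Of 15 double-stranded RNA and interferon genes 10 were tested, and 7 were higher and 3 lower (median log2 change 0.60). Without the filter all 15 entered, 7 higher and 4 lower, and their median was 0.16. The RNA sensor gene IFIH1 (MDA5) rose 6.35-fold to 9.47 ± 1.25 FPKM, and its relatives in function TLR3 and DDX58 (RIG-I) rose 4.78-fold from 1.14 ± 0.0822 to 5.44 ± 0.295 FPKM and 1.84-fold to 4.24 ± 0.0738 FPKM. STAT2, a transcription factor of the interferon response, rose 1.80-fold to 28.5 ± 0.406 FPKM. IFIT1, a typical interferon-induced gene, fell from 2.67 ± 0.172 to 0.121 ± 0.0449 FPKM, and OAS3, an oligoadenylate synthetase, fell 6.70-fold to 1.41 ± 0.0581 FPKM; MAVS was the other member lower. The 5 untested genes, IRF9, OAS1, OAS2, OASL and MX1, had group means of at most 1.03 FPKM.

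Genes of heme synthesis and breakdown went both ways, with 4 of 10 higher, 5 lower and 1 not called and a median log2 change of -0.23. Both heme oxygenases, which break heme down, rose: HMOX1 26.2-fold from 4.85 ± 0.218 to 127 ± 1.62 FPKM, the largest change of the list, and HMOX2 1.57-fold from 6.77 ± 0.373 to 10.6 ± 0.259 FPKM. On the synthesis side, ALAS1, the first and rate-limiting enzyme of heme synthesis, rose 2.37-fold from 16.3 ± 0.644 to 38.6 ± 1.55 FPKM. ALAD, the next enzyme of the path, fell 3.64-fold to 4.12 ± 0.327 FPKM, and CPOX, a later one, fell 2.36-fold to 6.43 ± 1.08 FPKM. FECH, which inserts the iron, stood at 7.49 ± 0.221 and 6.83 ± 0.585 FPKM and was not called (adjusted p = 0.111), though it was called lower with median-ratio scaling (adjusted p = 0.0200), quantile normalization (0.0307) and totals without mitochondrial genes (0.0453).

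GADD34 changed far more than any other member. PPP1R15A (ENSG00000087074, chromosome 19, 48872392 to 48876057, plus strand) stood at 17.1, 19.3 and 18.8 FPKM in control and at 227, 227 and 234 FPKM with UDCA. The lowest treated library was 11.7-fold above the highest control library. The mean rose 12.5-fold from 18.4 ± 1.12 to 229 ± 4.41 FPKM, a log2 change of 3.57 ± 0.043 (adjusted p = 2.47e-09), and 99.7% of tested genes had a lower log2 change. The gene shares no exon base with another annotated gene, and the change rests on 2938 control reads and 35462 UDCA reads, summed over libraries.

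CReP rose with it, by much less. PPP1R15B (ENSG00000158615, chromosome 1, 204403387 to 204411791, minus strand) stood at 29.8, 29.1 and 31.6 FPKM in control and at 62.1, 63.0 and 60.2 FPKM with UDCA. The 3 libraries of each group were tightly placed and the groups were far apart. The mean rose 2.05-fold from 30.1 ± 1.27 to 61.8 ± 1.42 FPKM, a log2 change of 1.01 ± 0.035 (adjusted p = 2.76e-07). It also shares no exon base with another gene.

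The order of the subunits turned over. The ratio of PPP1R15A to PPP1R15B FPKM was 0.576, 0.663 and 0.594 in control and 3.65, 3.60 and 3.89 with UDCA, so CReP was the more abundant message in each control library and GADD34 in each treated one. GADD34 supplied 37.9% ± 1.75 of the summed subunit level in control and 78.8% ± 0.695 with UDCA. On the log2 scale the ratio moved by 2.61 (2-sided exact permutation test, p = 0.1, the smallest possible here).

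The stretches before the starts of these genes are shown because both subunits rose and each holds a different element tied to stress-induced transcription (GRCh38.p14, RefSeq; chr19:48872171-48872391, plus strand, and chr1:204411818-204412067, minus strand; each 5′ to 3′, ending before the first annotated transcript base). Capitals mark TGACGTCA, the cyclic AMP response element bound by ATF and CREB proteins, at bases -58 to -51 of PPP1R15A, and TGATGNAA, the core of the C/EBP-ATF response element bound by ATF4 dimers, at bases -227 to -220 of PPP1R15B, both counted from the RefSeq start:

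PPP1R15A: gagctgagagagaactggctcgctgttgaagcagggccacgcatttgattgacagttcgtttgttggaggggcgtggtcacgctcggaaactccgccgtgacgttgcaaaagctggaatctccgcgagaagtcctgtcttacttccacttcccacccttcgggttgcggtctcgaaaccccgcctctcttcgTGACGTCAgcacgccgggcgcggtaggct
PPP1R15B: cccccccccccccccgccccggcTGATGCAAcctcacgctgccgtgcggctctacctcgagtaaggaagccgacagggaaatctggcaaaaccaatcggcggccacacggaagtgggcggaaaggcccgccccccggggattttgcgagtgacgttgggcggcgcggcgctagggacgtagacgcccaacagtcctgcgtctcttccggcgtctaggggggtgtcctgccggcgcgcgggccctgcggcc

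The 8-base cyclic AMP element occurs in 1.85% of the promoter windows and the C/EBP-ATF core in 3.62%. Of the 7 members with a window in the table, these were the only matches to either. The short box CCAAT, present in 34.6% of windows, was found at EIF2AK2, EIF2AK3, PPP1R15B and DELE1, with 4 copies before EIF2AK3. The endoplasmic reticulum stress element, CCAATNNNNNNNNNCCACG, which contains that box, was found at none of the 7, and in 0.0769% of all windows. The motifs were picked after the sequences had been seen.

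Of the 3 catalytic partners 2 fell, with a median log2 change of -0.83. PPP1CA, the alpha catalytic subunit of PP1, fell 2.35-fold from 92.9 ± 1.84 to 39.5 ± 3.17 FPKM, and PPP1CC, the gamma subunit, fell 1.85-fold from 23.6 ± 0.378 to 12.8 ± 0.189 FPKM. PPP1CB, the beta subunit, stood at 24.4 ± 0.471 and 21.8 ± 2.50 FPKM and was not called (adjusted p = 0.0899). It was called lower with median-ratio scaling (adjusted p = 0.0177), totals without mitochondrial genes (0.0419), voom on recovered reads (0.00422), or without UDCA replicate 1 (0.0458). Of the exon bases of PPP1CA 26.9% lie in exons of other genes.

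All 3 subunit genes of eIF2 rose, as did 3 of the 5 of its exchange factor eIF2B. Of these 8 genes 6 were higher, none lower and 2 not called, with a median log2 change of 0.30. EIF2S1, which encodes eIF2alpha, the substrate itself, rose 1.17-fold from 20.1 ± 0.478 to 23.4 ± 0.497 FPKM (adjusted p = 0.000404). The beta and gamma subunit genes rose more, EIF2S2 1.95-fold from 81.0 ± 0.676 to 158 ± 4.03 FPKM and EIF2S3 1.67-fold from 54.0 ± 0.306 to 90.1 ± 1.28 FPKM. EIF2B5, the catalytic subunit of the exchange factor, rose 1.65-fold from 10.9 ± 0.637 to 17.9 ± 0.554 FPKM. EIF2B1 and EIF2B4 were not called, at 24.8 ± 0.913 and 24.4 ± 0.596 FPKM and at 5.91 ± 0.240 and 6.21 ± 0.466 FPKM; EIF2B1 was called lower with median-ratio scaling (adjusted p = 0.0234). EIF2B3, higher at an adjusted p of 0.00735, was not called with median-ratio scaling (0.0616) or quantile normalization (0.0612).

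OMA1 and DELE1, the protease and the messenger of the mitochondrial route to HRI, went in opposite directions. OMA1 (ENSG00000162600, chromosome 1, 58415384 to 58546802, minus strand) stood at 3.02, 3.08 and 3.18 FPKM in control and at 4.61, 4.92 and 4.63 FPKM with UDCA. All treated libraries were above all control libraries, at a low level of 187 to 210 reads per control library and 274 to 312 per UDCA library. The mean rose 1.52-fold from 3.10 ± 0.0815 to 4.72 ± 0.176 FPKM, a log2 change of 0.48 ± 0.047 (adjusted p = 6.12e-05). The coefficient of variation of OMA1 was 2.63% in control and 3.74% with UDCA, below the 7.11% and 5.85% that counting error alone gives. The SD and SE may therefore be too small, and with voom on recovered reads the SE of the OMA1 change was 0.091. Of its exon bases 6.91% lie in exons of DAB1 on the same strand, which stood at 0.770 ± 0.131 and 0.0631 ± 0.0220 FPKM.

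DELE1 was the member that fell. DELE1 (ENSG00000081791, chromosome 5, 141923808 to 141942047, plus strand) stood at 18.6, 18.8 and 18.9 FPKM in control and at 8.41, 8.63 and 9.34 FPKM with UDCA. UDCA replicate 3 lay highest among the treated libraries, and the lowest control library was still 1.99-fold above it. The mean fell 2.13-fold from 18.7 ± 0.141 to 8.80 ± 0.487 FPKM, a log2 change of -1.01 ± 0.041 (adjusted p = 6e-07), and 11.8% of tested genes had a lower log2 change. In control its coefficient of variation of 0.750% was below the counting error of 2.26%, while with UDCA 5.54% exceeded 3.36%. DELE1 shares no exon base with another gene and rests on 5848 control reads and 2662 UDCA reads, summed over libraries. Reads of mitochondrially encoded genes fell between the same groups. They made up 3.13 to 3.16% of recovered reads in the control libraries and 0.0263 to 0.0271% in the UDCA libraries. Their part in the change of OMA1 and DELE1 was not tested.

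Of 10 genes for inner-membrane proteases, their substrate OPA1, the prohibitins and related proteins, 6 were higher, 1 lower and 3 not called, with a median log2 change of 0.15. That median was 0.065 with median-ratio scaling and 0.084 with quantile normalization, where all tested genes had medians of 0.018 and 0.059. The largest log2 change was that of YME1L1. This gene, whose protease shares the substrate OPA1 with OMA1, rose 1.84-fold from 25.3 ± 0.245 to 46.4 ± 0.487 FPKM. The ratio of OMA1 to YME1L1 FPKM was 0.118, 0.122 and 0.127 in control and 0.0993, 0.105 and 0.101 with UDCA, a move of -0.27 on the log2 scale with no overlap (2-sided exact permutation test, p = 0.1, the smallest possible). OPA1, the fusion GTPase, stood at 11.2 ± 0.0854 and 12.4 ± 0.308 FPKM (adjusted p = 0.00566), a call lost with median-ratio scaling (adjusted p = 0.195) and quantile normalization (0.390). The prohibitin gene PHB2 fell 1.22-fold from 116 ± 0.808 to 95.2 ± 3.84 FPKM, and PHB was not called at 29.6 ± 1.38 and 31.2 ± 0.260 FPKM. PHB was called higher with quantile normalization (adjusted p = 0.0434) and without control replicate 2 (0.0112). PGAM5, a phosphatase gene of the mitochondrial membrane, rose 1.28-fold to 11.3 ± 0.696 FPKM. With median-ratio scaling the protease gene SPG7 and the membrane scaffold gene STOML2, not called here, were also lower. HTRA2, called higher here, lost that call with median-ratio scaling (adjusted p = 0.125) and quantile normalization (0.182).

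Genes downstream of eIF2alpha phosphorylation were higher in 11 of 12 cases, with 1 lower, VLDLR, and a median log2 change of 2.40. That median was 3.71 with a pseudocount of 0.1 and 3.81 with voom on recovered reads. The list holds ATF4 itself, whose transcript rose 2.64-fold from 170 ± 3.28 to 450 ± 16.3 FPKM, and typical targets of ATF4. The transcription factor gene ATF3 led with a log2 change of 5.32, ahead of TRIB3, a pseudokinase gene that restrains ATF4, at 4.86 and the CHOP gene DDIT3, with 39.6% of its exon bases in other genes, at 4.11. Further, the glutathione-degrading enzyme gene CHAC1 rose 17.1-fold from 3.05 ± 0.250 to 52.2 ± 1.03 FPKM, SESN2, an mTORC1 inhibitor, rose 11.5-fold from 6.82 ± 0.299 to 78.6 ± 0.388 FPKM, and the serine synthesis gene PSAT1 rose 4.09-fold from 34.7 ± 1.61 to 142 ± 1.52 FPKM. ATF5, whose message is also favoured when eIF2alpha is phosphorylated, rose 1.33-fold from 4.77 ± 0.116 to 6.33 ± 0.436 FPKM; other genes cover 23.7% of its exon bases. Of 5 genes in the other branches of the endoplasmic reticulum stress response, both sensors, a transcription factor and a protease gene were higher. ERN1, which encodes the sensor IRE1, rose 13.9-fold from 1.37 ± 0.0619 to 19.0 ± 0.503 FPKM and ATF6 rose 1.99-fold from 15.0 ± 0.168 to 29.8 ± 0.439 FPKM, where PERK rose 1.84-fold. XBP1, the transcription factor gene whose message IRE1 splices, rose 8.80-fold from 26.6 ± 0.969 to 234 ± 5.05 FPKM. MBTPS1, a protease that cuts ATF6, stood at 22.4 ± 0.701 and 25.3 ± 0.680 FPKM (adjusted p = 0.00223, and 0.0638 with median-ratio scaling). MBTPS2, which cuts it next, was not called at 4.14 ± 0.0565 and 3.87 ± 0.167 FPKM, and was lower with median-ratio scaling (adjusted p = 0.0188).

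**Figure D3:**
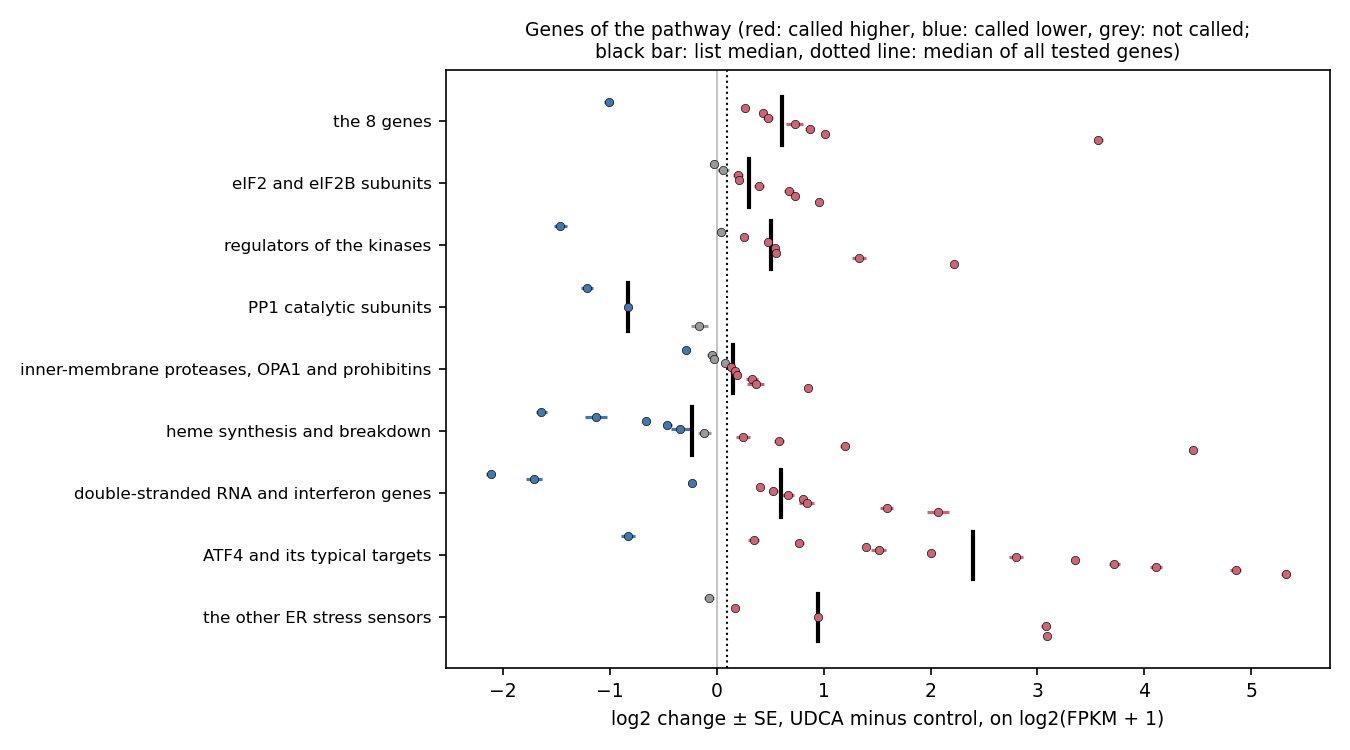
Log2 change ± SE (horizontal axis, log2(FPKM + 1), UDCA minus control) of each tested gene in the 8 genes and the fixed lists, red where called higher, blue where called lower and grey where not called, with list medians as black bars. The ATF4 list has its median at 2.40, the PP1 catalytic subunits have theirs at -0.83, and the dotted line marks all tested genes at 0.10.

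The order of the members by level also changed. In control it ran from EIF2AK1 through PPP1R15B, DELE1, PPP1R15A, EIF2AK4, EIF2AK2 and EIF2AK3 to OMA1, where DELE1 and PPP1R15A overlapped between libraries, as did EIF2AK3 and OMA1. With UDCA it ran from PPP1R15A through PPP1R15B, EIF2AK1, EIF2AK2, EIF2AK4, DELE1 and EIF2AK3 to OMA1, with no overlap between neighbours. PPP1R15A thus moved from the fourth place to the first, and DELE1 from the third to the sixth. Places between genes depend on the merged exon length by which reads are divided, 6047 bases for DELE1 and 3093 for PPP1R15A. In control reads, summed over libraries, DELE1 had 5848 and PPP1R15A 2938.

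**Figure D4:**
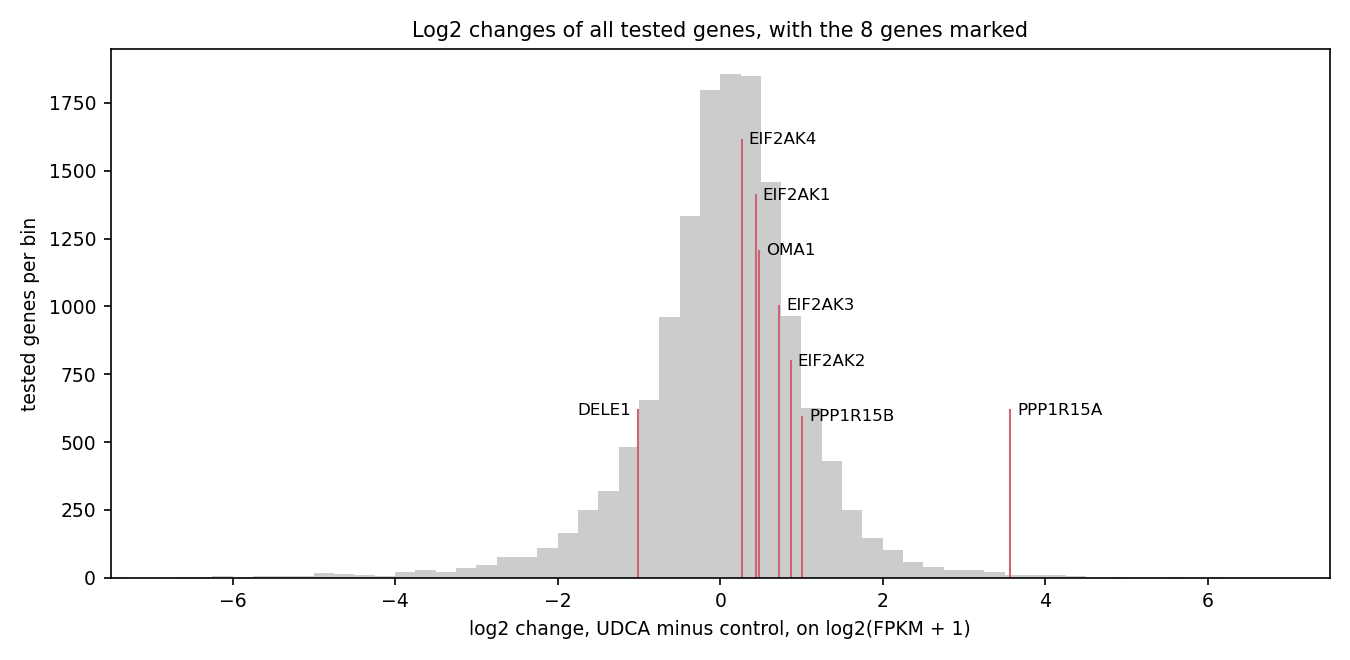
Histogram of the log2 changes of all 14380 tested genes (grey, genes per bin) with the 8 genes marked by red lines of arbitrary height. Apart from PPP1R15A at 3.57, the members lie between -1.01 and 1.01.

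Profiles most like those of the extreme members were found by the Euclidean distance over the 6 libraries between log2(FPKM + 1) values centred on the control mean. For PPP1R15A the nearest protein-coding genes were FTH1 at a distance of 0.216, NFIL3 at 0.231 and FTL at 0.250. NFIL3, a bZIP transcription factor gene, stood at 4.61 ± 0.247 FPKM in control and 61.8 ± 1.34 FPKM with UDCA. FTH1 and FTL encode the ferritin chains; processed pseudogenes can take up their reads, and FTH1 has 62.4% of its exon sequence inside other genes. For DELE1 they were B4GAT1 at 0.0590, at 29.3 ± 0.821 and 14.0 ± 0.797 FPKM, ARAP3 at 0.0621 and AGER at 0.0622. With so many genes changed between the same groups, such likeness describes the size of a change and little else.

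The direction and the call of each of the 8 genes were the same under the 13 alternatives run. With no filter and with the replicate block the direction could not differ, only the call. The log2 change ranged from 3.48 to 3.64 for PPP1R15A and from 0.92 to 1.07 for PPP1R15B. It ranged from 0.35 to 0.46 for EIF2AK1, from 0.79 to 0.95 for EIF2AK2, from 0.65 to 0.89 for EIF2AK3 and from 0.17 to 0.30 for EIF2AK4. For OMA1 it ranged from 0.41 to 0.61 and for DELE1 from -1.10 to -0.98. The highest adjusted p among them was 0.00558, for EIF2AK4.

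**Figure D5:**
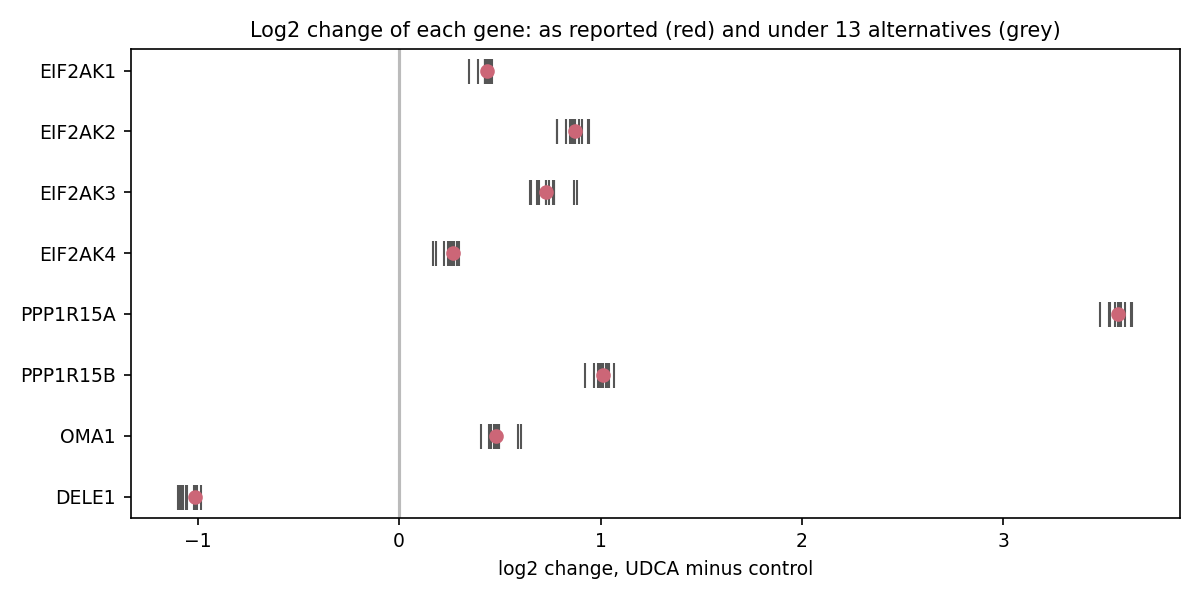
Log2 change (horizontal axis, UDCA minus control) of each of the 8 genes as reported (red points) and under 13 alternatives of scaling, pseudocount, filter, test, pairing and libraries (grey ticks). Every tick stays on the same side of 0 as its red point, with EIF2AK4 nearest to 0 at 0.17 to 0.30.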

How the data were processed

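Polyadenylated RNA was made into TruSeq libraries, per the labels' protocols. HISAT2, Bowtie2 2.0.6 and GRCh38 are named in the submitters' processing notes, without saying what each did. The sources used here do not give the counting program or its use of strand. The deposited values carry no unit and were read as FPKM, since each value times the merged exon length in GENCODE 29 was a whole multiple of 1 step per library (100% of values, tolerance 0.01 reads). Whole reads recovered this way sum to 15988951 to 17743022 per library, so 3 reads in 1 kb are 0.169 to 0.188 FPKM, for counting error only. Beyond the total, FPKM applies no scaling between libraries.

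Genes at 1 FPKM or more in 3 or more libraries were fitted with limma-trend (limma 3.58.1, R 4.3.3) on log2(FPKM + 1), group as the only term, 2-sided, with Benjamini-Hochberg adjustment over all 14380 tested genes and a threshold of 0.05. The fit was tested on simulated data in which few genes changed, evenly up and down, so that test does not cover a response as broad as this one. Shares and ratios were compared by exact permutation over libraries. Over the genes compared as a whole, replicates of a group differed by more than sampling noise (chi-square per degree of freedom of 1.67 to 2.73) and counted as 1 sample each. The genes, lists, tests and alternatives were chosen with earlier results of these data known. The genes named are the 8 members, genes of the 8 fixed pathway lists (first those called with the largest changes and at least 2 FPKM, then others by role), the marker genes, overlapping neighbours of the members and the 3 nearest profiles; the lists are described by counts and medians, with no set test. Promoter windows came from RefSeq (GRCh38.p14) and matched 7 of the 8 members by symbol, all but EIF2AK1. CDKN2A, planned as a check of the line, had no value under that symbol and was not analysed here, so the line itself was not checked. Some list genes are not reported by name. Alternatives were a pseudocount of 0.1, no filter, quantile normalization, median-ratio scaling, totals without mitochondrial genes, voom on recovered reads, a replicate block, omission of each library, and reads in place of FPKM for shares and ratios. Python 3.11.15 and pandas 2.3.3 were used for the tables.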

Additional observations from a re-analysis of the deposited data

How the results depend on the processing

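Some of the 412 alternative values over 34 results could not differ. The replicate block leaves the differences in shares and ratios unchanged, and recovered reads leave those in both ratios unchanged. Neither the replicate block nor the lack of a filter can alter the log2 change of a gene, only its SE and adjusted p. Of the 412 values, 409 kept their direction and call (direction only for shares and ratios), or for counts stayed within 1.5 times. The other 3 arose with median-ratio scaling, which lowers all UDCA values. With it 1 eIF2 or eIF2B subunit was lower in place of 0, and 3 inner-membrane genes in place of 1. Of the other endoplasmic reticulum stress branches 1 gene, the protease gene MBTPS2, was lower in place of 0. All 8 members kept their calls. Over all genes 6491 were higher and 5133 lower, 5945 and 5657 with median-ratio scaling, and 7743 and 6708 without a filter, and 6585 and 5233 with voom on recovered reads. Leaving out 1 library gave 6244 to 6374 higher and 4927 to 5018 lower. Same-numbered libraries did not deviate together (correlations of 0.0143, -0.00119 and 0.00725), which cannot exclude that the numbers pair them. With the replicate block 6427 genes were higher and 5076 lower, and 7 members were higher and 1 lower. Shares and ratios then had p = 0.25 in an exact sign-flip test, the smallest 3 pairs can give. Depth limits OMA1 and EIF2AK3 most, with counting errors in control of 7.11% and 5.52%.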
